A study of Mus musculus with 6 samples.

Results

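The genes described here are 10 prolyl isomerase genes of mouse, namely the FK506-binding proteins Fkbp1a, Fkbp2, Fkbp4, Fkbp5, Fkbp7, Fkbp8, Fkbp9, Fkbp11 and Fkbp14 and the ER cyclophilin Ppib. They were chosen by gene name from the 17385 genes of the authors' deposited table, and all 10 were present there, each on 1 row. The 6 members of the endoplasmic reticulum (ER), Fkbp2, Fkbp7, Fkbp9, Fkbp11, Fkbp14 and Ppib, were set beside the 4 members of the cytosol and mitochondria, Fkbp1a, Fkbp4, Fkbp5 and Fkbp8.

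A peptide bond before proline can stand in a cis or a trans form, and the slow turn between them limits the folding of many proteins. Prolyl isomerases speed that turn. They form the FKBP family, which binds the drug FK506, the cyclophilin family, which binds cyclosporin, and the small parvulin family. Members that carry an ER signal serve secreted and membrane proteins, collagen among them, while cytosolic members act on kinases, steroid receptors and channels. ATF6 sits in the ER membrane and, when folding fails there, travels to the Golgi, where its cytosolic part is cut free to switch on ER chaperone genes as a branch of the unfolded protein response.

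Hippocampal messenger RNA was sequenced in 3 sATF6-KI and 3 control C57BL/6 mice, all 2 months old. The sATF6-KI mice carried a Rosa26 knock-in of short-form ATF6 fused to MER (Rosa26-sATF6-MER) together with Emx1-Cre, and the controls carried Emx1-Cre alone, so both groups hold the Cre. Emx1 drives Cre in the forebrain lineage that gives excitatory neurons and also glia, so the transgene need not be limited to neurons. MER is a changed form of the hormone-binding end of the estrogen receptor. The sex of the mice and any ligand treatment were not given in the sources used here. Nothing in the labels says whether samples of a group shared a litter. The p-values therefore rest on the variation between these 3 samples a group, as modelled by the authors' test.

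The deposited comparison is sATF6-KI over control. A log2 fold change below is the authors', the value after ± is its Wald standard error, and a gene is called where the authors' DESeq2 test gave an adjusted p under 0.05 over all genes. No value per animal can be shown, because the columns per library bear names that match no sample label. The deposited mean over all libraries (baseMean, a normalized expression signal) and the fold change together imply a mean for each group of 3, and these implied means are given in place of values per animal, with no spread. The depth per sample is unknown here. The parts of the transgene were both higher per the authors' deposited table, Atf6 by 0.51 ± 0.06 and Esr1 by 6.09 ± 0.10 on the log2 scale. Reads of the transgene may be counted at either gene, which was not tested. The 7 hippocampal neuron markers all lay above the 90th percentile of baseMean among all genes, and none of the 7 was called.

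Promoters of 3 members and of Hspa5 are printed here because 5 of the 6 ER members were called higher and ATF6 is known to act at the ER stress element. The set holds Fkbp11, the member with the largest fold change, Ppib, the cyclophilin among the ER members, Fkbp9, the ER member that was not called, and Hspa5, the ER chaperone BiP, for comparison. Each window runs from 250 bases before to 50 bases after a start site, 5′ to 3′ on the strand of the gene, from RefSeq on GRCm38.p6. The motifs searched on both strands were the ER stress element, which is CCAAT and CCACG with any 9 bases between them, the ER stress element II, which is ATTGG and CCACG with any 1 base between them, the core TGACGTG of the unfolded protein response element, and the short site CCACG, which is also part of both ER stress elements. Capitals mark a match to any of them, and positions are counted from the start site, whose own base is 1.
Fkbp11, upstream start site (chr15:98728149-98728448, minus strand): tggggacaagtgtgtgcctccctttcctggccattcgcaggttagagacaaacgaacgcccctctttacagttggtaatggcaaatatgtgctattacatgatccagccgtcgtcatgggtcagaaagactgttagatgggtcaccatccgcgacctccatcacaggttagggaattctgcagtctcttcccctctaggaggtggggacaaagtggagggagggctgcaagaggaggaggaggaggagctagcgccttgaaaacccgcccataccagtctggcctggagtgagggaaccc
Fkbp11, downstream start site (chr15:98727578-98727877, minus strand): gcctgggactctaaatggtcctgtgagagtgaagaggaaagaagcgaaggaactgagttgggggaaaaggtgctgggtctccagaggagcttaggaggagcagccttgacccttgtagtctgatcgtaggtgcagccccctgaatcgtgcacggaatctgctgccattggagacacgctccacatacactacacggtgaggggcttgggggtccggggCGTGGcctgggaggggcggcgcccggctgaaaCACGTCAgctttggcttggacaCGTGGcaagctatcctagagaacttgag
Ppib (chr9:66059919-66060218, plus strand): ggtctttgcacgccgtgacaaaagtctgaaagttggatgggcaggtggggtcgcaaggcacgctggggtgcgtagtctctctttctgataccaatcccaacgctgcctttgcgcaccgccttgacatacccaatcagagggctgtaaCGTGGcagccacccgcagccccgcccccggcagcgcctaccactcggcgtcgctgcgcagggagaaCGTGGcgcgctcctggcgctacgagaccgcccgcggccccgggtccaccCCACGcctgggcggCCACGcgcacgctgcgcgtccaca
Fkbp9 (chr6:56831809-56832108, plus strand): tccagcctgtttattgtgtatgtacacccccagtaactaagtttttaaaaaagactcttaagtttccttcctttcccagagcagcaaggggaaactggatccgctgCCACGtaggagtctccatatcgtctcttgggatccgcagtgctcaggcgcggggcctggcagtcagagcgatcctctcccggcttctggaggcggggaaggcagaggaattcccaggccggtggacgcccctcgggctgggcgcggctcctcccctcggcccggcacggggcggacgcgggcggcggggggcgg
Hspa5 (chr2:34771840-34772139, plus strand): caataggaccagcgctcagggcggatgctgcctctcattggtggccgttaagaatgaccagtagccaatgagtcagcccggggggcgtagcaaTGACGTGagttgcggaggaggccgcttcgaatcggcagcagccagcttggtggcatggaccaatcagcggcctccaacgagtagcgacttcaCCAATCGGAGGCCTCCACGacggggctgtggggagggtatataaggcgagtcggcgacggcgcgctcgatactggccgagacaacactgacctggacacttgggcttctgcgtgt

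The full ER stress element was found in the Hspa5 window, from position -65, and in none of the 14 windows of the 10 members. It stood in 0.119% of 32851 promoter windows of mouse genes. ER stress element II was in none of the 14 windows, against 0.0365% of all windows. The core TGACGTG was in 1 of the 14, on the opposite strand at the downstream start site of Fkbp11, from position 1, against 2.01% of all windows. The short site CCACG was in 7 of the 14 windows, against 32.8% of all windows. Each ER member held the site in 1 window, and Fkbp5 was the only other member that held it. Some ER members had more than 1 window, and the difference between ER and other members was not tested. In Fkbp2 and Fkbp14 the window nearest the annotated 5′ end in GENCODE M21 held no CCACG. The window that held it lay 415 bases from that end in Fkbp2 and 4134 bases in Fkbp14. Ppib held 4 such sites, Fkbp9 held 1 at position -144, and Fkbp5, a cytosolic member, held a pair. The Fkbp5 window lies 31378 bases from the annotated 5′ end of that gene in GENCODE M21. The Fkbp11 window at the upstream start site, which coincides with the annotated 5′ end of the gene in GENCODE M21, held no match, and the downstream start site lies 571 bases further in. Windows of this length leave out more distant sites, and a match or its absence describes only these letters.

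Most of the ER members were higher in sATF6-KI hippocampus. Of the 6, 5 rose and none fell per the authors' deposited table, against 3.41% of all 17385 genes called higher and 1.93% called lower. All 10 members together held 6 calls, against 5.34% of all genes called in either direction. The median log2 fold change of the 6 ER members was 0.77 per the authors' deposited table, beside 0.0050 over all genes. The 4 cytosolic and mitochondrial members had a median of -0.12 per the authors' deposited table, with 1 lower and none higher. In bulk tissue, more cells of a type and more RNA per cell cannot be told apart. All 6 ER members had fold changes above 0 and all 4 of the others below 0, as the plot of log2 fold changes by member shows.

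**Figure D1:**
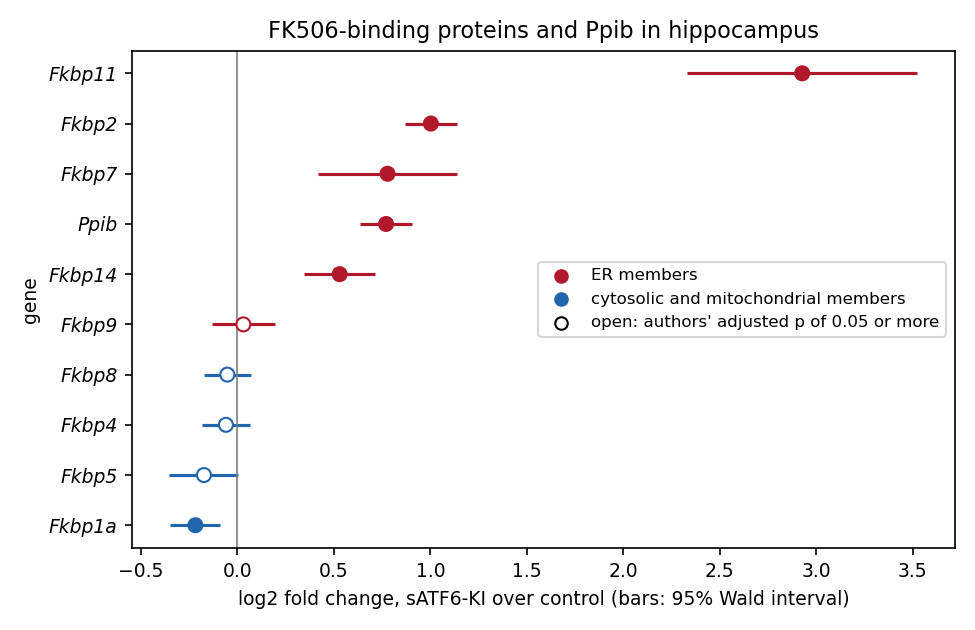
Log2 fold change of each of the 10 genes, sATF6-KI over control, on the horizontal axis, with 95% Wald intervals as bars and genes down the page. Filled points passed the authors' adjusted p under 0.05. Fkbp11 stands furthest to the right at 2.93, followed by Fkbp2, while Fkbp7, Ppib and Fkbp14 lie between 0.53 and 0.78 and Fkbp9 and the 4 cytosolic and mitochondrial members lie between -0.22 and 0.03.

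Fkbp11 codes for a membrane-anchored isomerase that is known to be abundant in secretory cells. Its implied mean normalized expression was 115 in sATF6-KI and 15.1 in control. It was 7.61-fold higher per the authors' deposited table (95% interval 5.03 to 11.5), which is 2.93 ± 0.30 on the log2 scale, and the authors' adjusted p was 1.84e-19. This ranked it the 21st highest of 17385 genes by fold change. Its baseMean of 64.9 per the authors' deposited table lies at the 22.6th percentile of all genes, and its interval was the widest among the members. The gene lies on chromosome 15 from 98724366 to 98728198, minus strand (GENCODE M21, GRCm38).

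Fkbp2, the small soluble FKBP of the ER lumen, had an implied mean of 3894 in sATF6-KI and 1943 in control. It was 2.00-fold higher per the authors' deposited table (95% interval 1.83 to 2.20), with the authors' adjusted p = 3.13e-46, the smallest among the members. Fkbp2 lies on chromosome 19 from 6977741 to 6980501, minus strand (GENCODE M21, GRCm38). Of its 3 RefSeq windows 1 held the short site CCACG.

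Ppib codes for cyclophilin B, which sits in the ER with other chaperones and in the complex that modifies collagen prolines. Its implied mean was 5237 in sATF6-KI and 3070 in control. It rose by 0.77 ± 0.07 on the log2 scale per the authors' deposited table, a 1.71-fold difference (95% interval 1.55 to 1.87) with the authors' adjusted p = 4.11e-26. Ppib lies on chromosome 9 from 66060222 to 66066623, plus strand (GENCODE M21, GRCm38). It overlaps Snx22 on the opposite strand, which was at -0.10 ± 0.13 per the authors' deposited table and not called. The strand setting of the counting was not given in the sources used here, so reads from the shared stretch cannot be assigned.

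Fkbp7 and Fkbp14 are ER-lumen FKBPs with calcium-binding EF-hand motifs, and Fkbp14 is known from a human connective tissue disorder in which it is lost. Fkbp7 had an implied mean of 172 in sATF6-KI and 100.1 in control. Its log2 fold change was 0.78 ± 0.18 per the authors' deposited table (authors' adjusted p = 0.00116), or 1.71-fold with a 95% interval of 1.34 to 2.20. Ppib had nearly the same estimate, but the interval of Fkbp7, at a baseMean of 136 per the authors' deposited table, was far wider. Fkbp14 had an implied mean of 931 in sATF6-KI and 645 in control. It was 1.44-fold higher per the authors' deposited table (95% interval 1.27 to 1.64, authors' adjusted p = 1.98e-06), the smallest of the called increases among the members. Fkbp7 lies on chromosome 2 from 76663044 to 76673116 and Fkbp14 on chromosome 6 from 54577604 to 54597308, both on the minus strand (GENCODE M21, GRCm38). Fkbp14 overlaps Plekha8 on the opposite strand, which was at 0.18 ± 0.09 per the authors' deposited table and not called.

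Fkbp9, an ER protein with several FKBP domains, was the ER member that did not pass. Its implied mean was 1924 in sATF6-KI and 1884 in control. The log2 fold change was 0.03 ± 0.08 per the authors' deposited table (authors' adjusted p = 0.929), and its 95% interval of 0.912-fold to 1.14-fold ended below the lower bound of each of the 5 called ER members. The difference between Fkbp9 and the others was not tested. Per kilobase of annotated exon its baseMean of 575 was above the 24.0 of Fkbp11, the 91.5 of Fkbp7 and the 190 of Fkbp14, which were called. Fkbp9 lies on chromosome 6 from 56832059 to 56879358, plus strand (GENCODE M21, GRCm38).

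**Figure D2:**
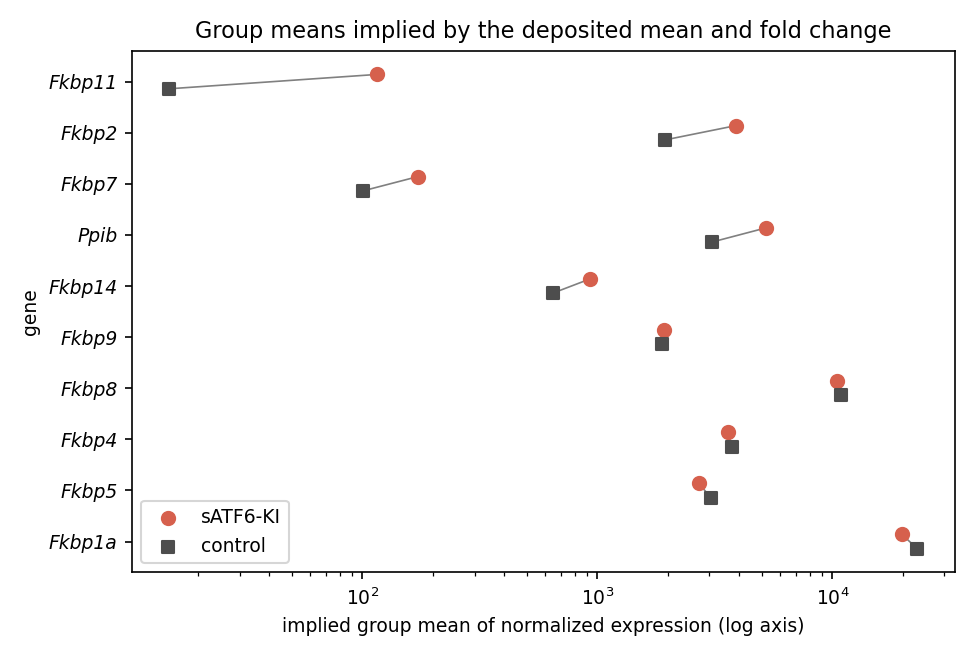
Group means of normalized expression implied by the deposited mean and fold change, on a log axis, for sATF6-KI (circles) above control (squares) in each of the 10 genes. The circle lies to the right of the square for the 5 called ER members, most so for Fkbp11 at 115 against 15.1, and slightly to the left for the 4 cytosolic and mitochondrial members.

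Among the members outside the ER, Fkbp1a was lower. It codes for FKBP12, the main target of FK506, which inhibits calcineurin or mTOR once drug is bound and which sits on ryanodine receptors and the TGF-beta receptor. Its implied mean was 19773 in sATF6-KI and 23005 in control. Fkbp1a had a log2 fold change of -0.22 ± 0.07 per the authors' deposited table, or 1.16-fold lower expression (95% interval 1.06 to 1.27), and the authors' adjusted p was 0.0238. The call ends at an adjusted p threshold of 0.01. Fkbp1a lies on chromosome 2 from 151542483 to 151561692, plus strand (GENCODE M21, GRCm38).

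Fkbp4 and Fkbp5, also known as FKBP52 and FKBP51, are cochaperones that bind HSP90 through tetratricopeptide repeats and act on steroid receptors in opposite ways. Fkbp4 had an implied mean of 3585 in sATF6-KI and 3737 in control, a log2 fold change of -0.06 ± 0.06 per the authors' deposited table (authors' adjusted p = 0.759). Fkbp5, a classic target of the glucocorticoid receptor, had an implied mean of 2697 in sATF6-KI and 3043 in control. Its log2 fold change was -0.17 ± 0.09 per the authors' deposited table (authors' adjusted p = 0.337), with a 95% interval from -0.35 to 0.01 that reached 0. Fkbp8, a membrane-anchored FKBP of the outer mitochondrial membrane known as FKBP38, had an implied mean of 10462 in sATF6-KI and 10851 in control. Its log2 fold change was -0.05 ± 0.06 per the authors' deposited table (authors' adjusted p = 0.788). For Fkbp4 and Fkbp8 the upper bounds of the 95% intervals, both 1.05-fold per the authors' deposited table, lay below the lower bounds of the 5 ER members that rose. Fkbp4 lies on chromosome 6 from 128429735 to 128438677, Fkbp5 on chromosome 17 from 28399094 to 28517527, both minus strand, and Fkbp8 on chromosome 8 from 70527724 to 70535328, plus strand (GENCODE M21, GRCm38). Fkbp5 overlaps several annotated non-coding genes, some on its own strand. Fkbp8 overlaps Kxd1 on the opposite strand, which was at -0.04 ± 0.09 per the authors' deposited table.

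Levels were compared between members only per kilobase of annotated exon in GENCODE M21. On that scale baseMean ran from 24.0 for Fkbp11 and 91.5 for Fkbp7 through 190 for Fkbp14, 303 for Fkbp5 and 575 for Fkbp9. Ppib had 1257, Fkbp4 1310, Fkbp2 1780, Fkbp8 2353 and Fkbp1a 5545 baseMean per kilobase. With no values per animal, it could not be assessed which neighbours in this order differ beyond their spread, and Ppib and Fkbp4 are close. The implied level of Fkbp11 per kilobase was 42.4 in sATF6-KI and 5.58 in control, so even in sATF6-KI it stayed below the other 9 members.

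The fold change deposited for Fkbp11 depends on how it is estimated. The deposited standard errors are those of a shrunken fold change, which pulls uncertain estimates toward 0, and the product of Wald statistic and deposited error gives that shrunken value. Fkbp11 had a shrunken fold change of 2.09, and ranked 33rd of all genes by it, against 7.61 unshrunken. Fkbp2 had 1.89 after shrinkage, Ppib 1.63, Fkbp7 1.38 and Fkbp14 1.37, so the order of the members stayed the same except that Ppib passed Fkbp7. All 10 directions and the tests are the same for both estimates, since they share the Wald statistic. At an adjusted p under 0.01, 5 of the 10 members were called, beside 2.96% of all genes. With a fold change of at least 1.5 besides the authors' threshold 4 were called, beside 1.25% of all genes, and with a shrunken fold change of that size 3 were, beside 0.598%. Bonferroni's correction left 4, beside 1.54% of all genes. The 6 calls stood when genes were limited to a baseMean of 10 or more, where 5.78% of genes were called, or to protein-coding genes, where 6.07% were.

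**Figure D3:**
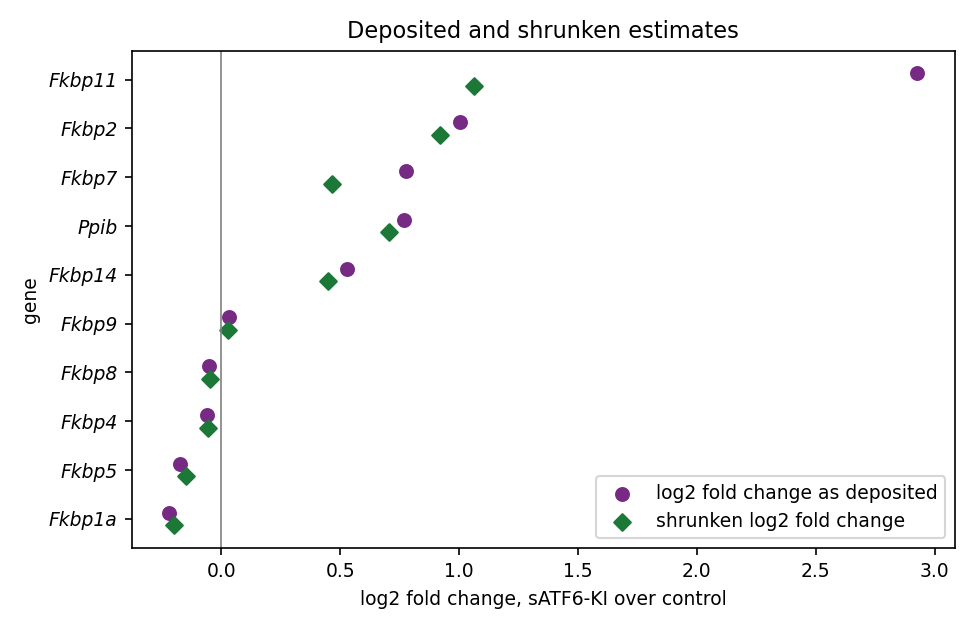
Log2 fold change of the 10 genes, sATF6-KI over control, as deposited (circles) and after shrinkage (diamonds). Fkbp11 stands at 2.93 as deposited and 1.06 after shrinkage, and Fkbp7 at 0.78 and 0.47, while the other 8 genes differ less between the estimates.

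The rest of the FKBP and cyclophilin families held few calls. Among 6 other FKBP genes, with a median of -0.11, Fkbp1b, which codes for the FKBP12 paralog FKBP12.6 of ryanodine receptors, fell by 0.39 ± 0.10 per the authors' deposited table (authors' adjusted p = 0.00296). Fkbp1a and Fkbp1b, the FKBP12 pair, were thus both lower. Fkbp3, a nuclear FKBP chosen after its value was seen, was at -0.22 ± 0.07 per the authors' deposited table (authors' adjusted p = 0.0542). Fkbp10 and Ppic, further isomerases of the ER and also chosen after their values were seen, were at -0.08 ± 0.13 and -0.15 ± 0.23 per the authors' deposited table and not called. Of 16 other cyclophilin genes, with a median of -0.04, 1 rose, Nktr, a large nuclear protein with a cyclophilin domain and arginine-serine repeats, at 1.58-fold per the authors' deposited table (authors' adjusted p = 5.97e-16). Nktr is no ER protein. Nktr overlaps an antisense gene, Fkbp3 overlaps Prpf39 and Fkbp10 overlaps Nt5c3b on opposite strands in GENCODE M21, so their values share that uncertainty.

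Most ER chaperones known to work beside Ppib and the ER FKBPs were higher too. Of 14 measured, 13 rose per the authors' deposited table, and the median log2 fold change was 1.20, against 0.77 for the 6 ER isomerases. Sdf2l1, an ER chaperone cofactor, was 12.9-fold higher per the authors' deposited table, and the disulfide isomerase gene Pdia4 7.36-fold. Hspa5 was 5.41-fold higher per the authors' deposited table, and Hsp90b1, which codes for the HSP90 of the ER, 4.81-fold. The 1 not called was Dnajc10, a disulfide reductase with a J domain, chosen after its value was seen, at -0.03 ± 0.07 per the authors' deposited table. This list was chosen with earlier results of these data known, so its direction is no independent evidence.

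In the cytosol, none of 11 genes of the HSP90 machinery that works with Fkbp4 and Fkbp5 was called by the authors' DESeq2 test. Their median was -0.08, and 3 were lower and none higher at an unadjusted p under 0.05. Of all 17385 genes, 1319 were lower and 1425 higher at that unadjusted threshold. Hsp90aa1 was at -0.15 ± 0.06 per the authors' deposited table (authors' adjusted p = 0.118) and Hsp90ab1 at -0.13 ± 0.05 (adjusted p = 0.137). Of 4 steroid receptor genes, with a median of -0.11, 1 fell, Nr3c2, the mineralocorticoid receptor, 1.31-fold lower per the authors' deposited table (authors' adjusted p = 2.35e-06). The glucocorticoid receptor gene Nr3c1, chosen after its value was seen, was at -0.08 ± 0.06 per the authors' deposited table. Of 16 genes known to rise with glucocorticoids, Fkbp5 among them, 1 rose while none were lower, with a median of -0.02 per the authors' deposited table. The 1 was Per1, a clock gene that also has other inducers, at 2.21-fold higher per the authors' deposited table (authors' adjusted p = 4.62e-59).

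Among 9 partners of FKBP12, 2 fell per the authors' deposited table, while none rose. The median of the 9 was -0.03 per the authors' deposited table. Both genes that fell code for calcineurin subunits. The catalytic subunit gene Ppp3ca fell by 0.31 ± 0.07 per the authors' deposited table (authors' adjusted p = 0.00084) and the regulatory subunit gene Ppp3r1 by 0.22 ± 0.07 (adjusted p = 0.0272). The value of Ppp3r1 is uncertain, as it overlaps Wdr92 on the same strand. None of 7 mitochondrial partners of Fkbp8 was called by the authors' DESeq2 test, and their median was -0.11. Of these, an unadjusted p under 0.05 was reached by 2 that were lower and 1 that was higher. Of all 17385 genes it was reached by 1319 that were lower and 1425 that were higher. Phb, prohibitin, was at -0.21 ± 0.09 and Map1lc3b, an LC3 gene of autophagy, at -0.15 ± 0.07 per the authors' deposited table.

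**Figure D4:**
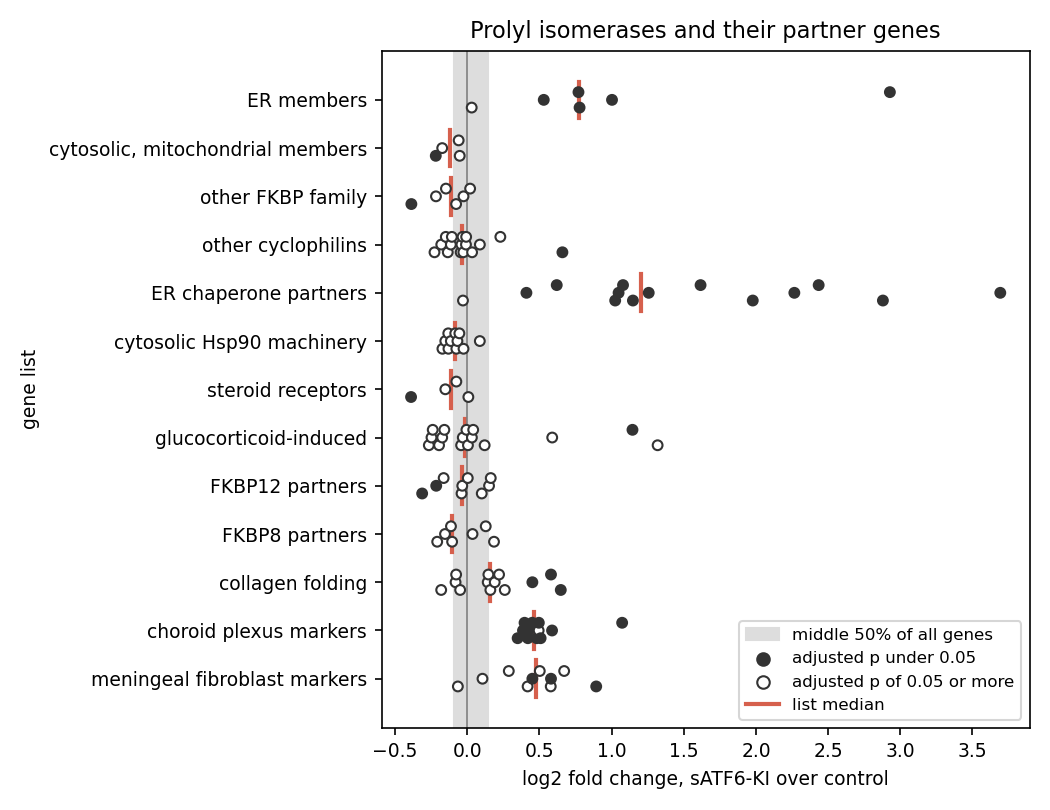
Log2 fold change, sATF6-KI over control, of each gene in 13 lists. Filled points passed the authors' adjusted p under 0.05, red bars are list medians, and the grey band spans the middle 50% of all genes. The ER members, with a median of 0.77, and the ER chaperone partners, with 1.20, lie furthest to the right, while the median of the cytosolic HSP90 machinery is -0.08.

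Collagen is a known client of Ppib, and Fkbp14 has been tied to it as well. Of 13 measured genes of collagen folding and collagen chains 3 rose and none fell per the authors' deposited table, with a median log2 fold change of 0.16. Serpinh1, the collagen chaperone HSP47, was 1.57-fold higher per the authors' deposited table, Col3a1 1.49-fold and Col1a1 1.37-fold. The collagen prolyl 3-hydroxylase gene Lepre1, chosen after its value was seen, codes for a partner of cyclophilin B and was at 0.26 ± 0.12 per the authors' deposited table (authors' adjusted p = 0.254).

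Markers of other cells moved in the same comparison. All 12 choroid plexus markers had fold changes above 0 and 11 rose per the authors' deposited table, with a median of 0.47 and a summed implied mean of 255988 in sATF6-KI and 184607 in control. The 4 largest called were Tmem72 at 1.07 ± 0.12, Cldn2 at 0.59 ± 0.10, Kl at 0.51 ± 0.09 and Ttr at 0.50 ± 0.16 per the authors' deposited table. Of 10 meningeal fibroblast markers 3 rose and none fell, with a median of 0.48 per the authors' deposited table and a summed implied mean of 6569 in sATF6-KI and 5364 in control. They were Slc22a6 at 0.89 ± 0.22, Col3a1 at 0.58 ± 0.19 and Col1a1 at 0.45 ± 0.11 per the authors' deposited table, while Dcn, an abundant fibroblast gene chosen after its value was seen, was at -0.07 ± 0.10. Neither marker list had a gene at 0 in baseMean, since the smallest was 179. The part of these cells in the ER members' values was not tested.

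The other marker lists held few calls. Of 8 endothelial and mural markers, with a median of 0.15, Pdgfrb rose, by 0.25 ± 0.08 per the authors' deposited table. Of 6 astrocyte markers, with a median of -0.19, Aldoc fell by 0.25 ± 0.08 per the authors' deposited table, and of 5 microglia markers, with a median of -0.07, P2ry12 fell by 0.30 ± 0.08. None of 5 oligodendrocyte markers was called by the authors' DESeq2 test. An unadjusted p under 0.05 was reached by 1 that was lower and by none that was higher. Of all 17385 genes it was reached by 1319 that were lower and 1425 that were higher. Olig2 was at -0.21 ± 0.08 and Mog at -0.13 ± 0.09 per the authors' deposited table, with a list median of -0.09. None of the 7 hippocampal neuron markers was called by the same DESeq2 test, although an unadjusted p under 0.05 was reached by 1 that was higher and 3 that were lower. Their median was -0.13 per the authors' deposited table, and Snap25 was at 0.21 ± 0.07 and Slc17a7 at -0.17 ± 0.06.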

How the data were processed

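Messenger RNA of hippocampus was measured in 3 sATF6-KI and 3 control mice. Per the labels' protocols, libraries came from DNase-treated RNA and a stranded KAPA kit. The submitters' processing notes name DESeq2, HTSeq, STAR, cutadapt and Trim Galore. Their versions, the build and the annotation were not given in the sources used here.

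For 17385 genes the authors' deposited table gives, per the file headers, a mean normalized expression signal (baseMean), a log2 fold change, a Wald statistic (a score), a p-value and an adjusted p-value. A further 6 columns of values per library were not used. The deposited standard error is another column of the authors' table. For 98.4% of genes it fitted a shrunken estimate with 1 prior precision within 2% of a median of 19.7. The Wald error, log2 fold change over statistic, was therefore used instead. Fkbp11 was not among the genes that fitted within 2%. Intervals are 95% Wald intervals. The planned edgeR test was not run because no counts were mapped to samples.

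Genes named are the 10 members, up to 4 called genes of each list by size of change, the 2 with the smallest p where none was called, the 5 called genes nearest to Fkbp11, Atf6 and Esr1. The members and lists were chosen with earlier results of these data known. Of the gene IDs 17166 matched GENCODE M21. Near-identical copies were searched with blastn 2.17.0 in its transcripts. The calling step and intervals were run on simulated data with normal noise of the same Wald errors. That run checks the code and not the authors' fit. Software was numpy 2.4.6, pandas 2.3.3, matplotlib 3.10.9 and scipy 1.17.1 under Python 3.11.15. Other thresholds, a filter on baseMean, coding genes alone and shrunken fold changes were tried as alternatives.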

Additional observations from a re-analysis of the deposited data

How the results depend on the processing

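No paired analysis was possible because the columns per library could not be tied to samples. For the same reason fits of the samples by limma, edgeR or DESeq2, pseudocounts, other normalizations and fits without single replicates were not run. The settings with shrunken fold changes were chosen after seeing the data. Of the 10 members, the 6 called were 3 with a shrunken fold change of at least 1.5, and the 5 ER members called higher were 3 too (Fkbp11, Fkbp2 and Ppib). The 1 cytosolic member called lower, Fkbp1a, was 0 at an adjusted p under 0.01, at a fold change of at least 1.5, by Bonferroni and with shrunken fold changes of at least 1.5. The median log2 fold change of the ER members was 0.59 after shrinkage. Over all genes, the 928 called were 514 at an adjusted p under 0.01, 217 at 1.5-fold or more, 268 by Bonferroni and 104 with shrunken fold changes of at least 1.5. The 592 higher were 379, 206, 234 and 104 in the same order, and the 336 lower 135, 11, 34 and 0. The 40 called genes of the other lists were 32 at an adjusted p under 0.01, 19 at 1.5-fold or more, 24 by Bonferroni and 15 with shrunken fold changes of at least 1.5. Tighter thresholds lower counts by construction. Among the single genes followed, Bonferroni ended the calls of Fkbp1a, Fkbp7 and Fkbp1b, a fold change of at least 1.5 those of Fkbp1a, Fkbp14 and Fkbp1b, and the same shrunken threshold that of Fkbp7 as well. With protein-coding genes alone Fkbp3 became called. None of these calls changed with a baseMean of 10 or more. No setting run could reverse a direction, since all used the deposited fold change or Wald statistic. Without values per animal, each fold change is as precise as the authors' fit.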

Other observations

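The called genes nearest to Fkbp11 in log2 fold change per the authors' deposited table were C1qtnf1 at 2.93 ± 0.14, Rbm15b (ENSMUSG00000074102) at 2.88 ± 0.09, Pdia4 at 2.88 ± 0.07, Scarf2 at 3.03 ± 0.12 and Gm15344 at 3.05 ± 0.28. Likeness here is the difference of 1 fold change between groups, not a pattern over animals. Of these 5, Pdia4 is an ER folding enzyme, C1qtnf1 a secreted protein of the C1q and TNF family and Scarf2 a membrane scavenger receptor. In GENCODE M21, Rbm15b overlaps Manf and Gm15344 overlaps Hsp90b1 on the same strand, so both values are uncertain. After shrinkage Pdia4 was at 2.61, Rbm15b at 2.50, Scarf2 at 2.36, C1qtnf1 at 2.11, Gm15344 at 1.24 and Fkbp11 at 1.06. Among these genes only Pdia4 had errors that fitted the common shrinkage, so the other shrunken values are approximate. Fkbp11 and Gm15344, with baseMeans of 64.9 and 92.3 per the authors' deposited table, thus moved furthest.

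Ppia, the cytosolic cyclophilin A and known as one of the most abundant proteins of most cells, had a baseMean of 920 per the authors' deposited table, or 262 per kilobase of annotated exon, against 1257 per kilobase for Ppib. Its longest coding transcript matched 18 other annotated genes, all of pseudogene types, over at least 300 bases at 95% identity or more. None of the 10 members had such a match. How reads that fit several places were treated was not given in the sources used here, and the part of these copies in this level was not tested. The log2 fold change of Ppia was 0.03 ± 0.09 per the authors' deposited table.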
